A study of Mus musculus with 7 samples.

Results

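Chromatin accessibility at the E protein genes Tcf3, Tcf4 and Tcf12 and at the Id genes Id1, Id2 and Id3 was examined by ATAC-seq in 7 libraries made from B progenitors of mice. In ATAC-seq, sequencing adaptors enter open DNA, and a peak is a stretch where fragments pile up above the background of the library. Peaks of the 7 lists, 647973 in all, were merged into 145247 regions wherever they shared at least 1 bp. A region was assigned to one of the 6 genes when it overlapped the gene body or the 30 kb on either side of it. This gave 162 regions, of which 134 belonged to E protein genes (84 to Tcf4, 34 to Tcf12 and 16 to Tcf3) and 28 to Id genes (12 to Id3, 11 to Id1 and 5 to Id2). At 7 of the 162 the region lay at the promoter of another coding gene (Mex3d, Mbd3, Uqcr11, Cox4i2 or E2f2). The level given throughout is the peak height, the pileup of fragments at the summit as a multiple of the library's genome-wide background. A region with no peak in a library is called closed there, although it may hold fragments below the lowest height called, which was 2.61 to 3.09 in these libraries.

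Each of the 7 groups was represented by 1 library, so no spread between animals is known, no test between groups was run, and intervals cover counting error only. WT cells carried the genotype Ergfl/fl and came from the pre-proB, proB and preB stages, through which bone marrow progenitors pass in that order. Erg KO pre-proB cells were Rag1CreT/+;Ergdelta/delta, in which Cre under control of Rag1 deletes the ETS factor gene Erg in lymphoid cells. Rescue cells were Rag1CreT/+;Ergdelta/delta;IgHVH10tar, with the same deletion and an already rearranged heavy chain allele (heterozygous per the study's methods), and were titled pre-proB, proB and preB. All groups other than WT therefore lacked Erg. The labels give neither age nor sex, and per the study's methods NK1.1+ and CD11c+ cells had been gated out. For every Rescue library the source name gives a different stage from the title (proB, preB and pre-proB for the titles pre-proB, proB and preB), and titles were followed here. The lists held 76465 to 105649 peaks, with a background pileup of 3.49 to 4.6.

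Tcf3 (ENSMUSG00000020167) lies on the minus strand of chromosome 10 from 80409514 to 80433647, and Tcf12 (ENSMUSG00000032228) on the minus strand of chromosome 9 from 71842688 to 72111871. Tcf4 (ENSMUSG00000053477) lies on the plus strand of chromosome 18 from 69343356 to 69689079. Id1 (ENSMUSG00000042745) spans 152736251 to 152737410 of chromosome 2 and Id3 (ENSMUSG00000007872) spans 136143497 to 136145755 of chromosome 4, both on the plus strand. Id2 (ENSMUSG00000020644) spans 25093799 to 25097140 of chromosome 12 on the minus strand. Coordinates are on mm10 with genes from GENCODE M21, and introns are numbered in the longest transcript of each gene. The E protein genes span 24134 bp (Tcf3) to 345724 bp (Tcf4) and the Id genes 1160 to 3342 bp, so that most E protein regions were intronic and most Id regions lay outside the gene.

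E proteins are basic helix-loop-helix transcription factors that bind short DNA motifs called E-boxes as dimers. Tcf3 encodes the E2A proteins, which are required for B-lineage specification, Tcf4 encodes E2-2, which is essential for plasmacytoid dendritic cells, and Tcf12 encodes HEB, which acts with E2A in T- and B-cell progenitors. Id proteins have the helix-loop-helix but lack the DNA-binding basic region, so that an E protein paired with an Id cannot bind DNA. Id2 is best known in NK cells, innate lymphoid cells and dendritic cells, Id3 in lymphocytes downstream of antigen receptors, and Id1 in stem cells and endothelium.

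The sequences of 5 regions that carry the stage patterns described below are shown first. Each is 200 bases of the plus strand of GRCm38 around the highest-scoring summit, in lower case, with capitals for matches on either strand to E-box CAGGTG, E-box CAGCTG, EBF1 CCCNNGGGA, ETS CCGGAAGT, PU.1 GAGGAAGT or RUNX TGTGGTT. The Tcf3 element labelled inner promoter is shown because it was open in WT and closed in Erg-deficient pre-proB cells. Its summit lay 1080 bp from the nearest start site, and another region near that site was open in every library. The next pair, both from intron 3 of Tcf12, show a region that was higher in pre-proB cells and one that was open only in later cells. The Id3 element, upstream of the gene, was also open only in later cells, and the Id2 promoter was higher in all 7 libraries than the first promoters of the other genes.
Tcf3 inner promoter element, intron 2, chr10:80429832-80430031: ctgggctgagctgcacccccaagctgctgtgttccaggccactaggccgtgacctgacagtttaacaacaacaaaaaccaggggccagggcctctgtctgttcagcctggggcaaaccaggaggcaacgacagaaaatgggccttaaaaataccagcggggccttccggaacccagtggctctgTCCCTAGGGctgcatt
Tcf12 intron 3, pre-proB-high, chr9:72097175-72097374: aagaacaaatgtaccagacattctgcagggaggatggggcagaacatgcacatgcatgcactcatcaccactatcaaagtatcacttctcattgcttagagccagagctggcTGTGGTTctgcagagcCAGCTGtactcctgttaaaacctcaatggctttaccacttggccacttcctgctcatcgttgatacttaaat
Tcf12 intron 3, open in proB and preB only, chr9:72100023-72100222: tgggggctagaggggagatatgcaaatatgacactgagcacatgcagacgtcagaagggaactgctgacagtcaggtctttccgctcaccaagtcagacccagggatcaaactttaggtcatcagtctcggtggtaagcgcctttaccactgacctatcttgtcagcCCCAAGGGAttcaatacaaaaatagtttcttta
Id3 upstream element, chr4:136127769-136127968: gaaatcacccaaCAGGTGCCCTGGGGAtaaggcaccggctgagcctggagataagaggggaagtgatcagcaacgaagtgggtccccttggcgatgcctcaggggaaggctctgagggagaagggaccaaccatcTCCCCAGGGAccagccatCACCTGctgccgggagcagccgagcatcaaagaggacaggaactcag
Id2 promoter, chr12:25096087-25096286: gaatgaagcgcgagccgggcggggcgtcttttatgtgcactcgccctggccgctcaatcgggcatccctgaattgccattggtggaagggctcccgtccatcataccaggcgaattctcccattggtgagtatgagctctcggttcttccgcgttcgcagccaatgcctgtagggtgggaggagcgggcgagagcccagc

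The Id3 element held 2 matches to CAGGTG and 3 to the EBF1 letters, of which a pair overlap because the letters can be read on both strands at the same site. The inner Tcf3 element and the later-stage Tcf12 element each held 1 EBF1 match and neither CAGGTG nor CAGCTG in these 200 bases. Other E-box letters were not searched. The pre-proB-high Tcf12 element held 1 CAGCTG and 1 RUNX match and no EBF1 match, and the Id2 promoter window held none of the 6. A match is a run of letters and does not show that a factor is bound.

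The promoter of each of the 6 genes was open in every library, taken at the first annotated start site except for Id2, whose peak lay at the start site at 25096092 rather than at 25097140. The Id2 promoter was the highest of these 6 in each library, inner start sites of the E protein genes aside, with heights of 118, 127 and 155 in WT pre-proB, proB and preB cells, 120.5 in Erg KO pre-proB cells, and 136, 159.9 and 172 in Rescue pre-proB, proB and preB cells. The first promoter of Tcf4 had heights of 74.3, 84.2 and 100.5 in the WT stages, 72.2 in Erg KO pre-proB cells, and 75.7, 80.5 and 128 in the Rescue stages. For both genes the lowest heights were thus those of pre-proB cells, except that the Id2 height of Rescue pre-proB cells lay above that of WT proB cells. The first promoter of Tcf3 went the other way, with 87.5, 44.6 and 62.3 in WT, 83.2 in Erg KO and 84.4, 65.9 and 60.8 in Rescue, so that the 3 pre-proB libraries were the 3 highest.

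The Id3 promoter had heights of 68.3, 56.8 and 59.8 in WT, 66 in Erg KO, and 71.4, 48.7 and 67.6 in Rescue, and here the pre-proB and later libraries overlapped. The first Tcf12 promoter was lower, at 29.8, 24.7 and 39 in WT, 27.1 in Erg KO and 33.3, 36.1 and 36.4 in Rescue. The Id1 promoter, at the gene's only annotated start site, had 18.8, 28.1 and 22.5 in WT, 18.6 in Erg KO and 20, 22.9 and 27.6 in Rescue. Tcf12 and Id1 were the lowest of the 6 in every library, and their order exchanged between WT proB cells and the others. In WT pre-proB cells the order was Id2, Tcf3, Tcf4, Id3, Tcf12 and Id1, and in WT proB cells Tcf3 lay below Tcf4 and Id3. Between WT and Erg KO pre-proB cells all 6 promoters differed by less than the 2-fold used as a threshold.

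**Figure D1:**
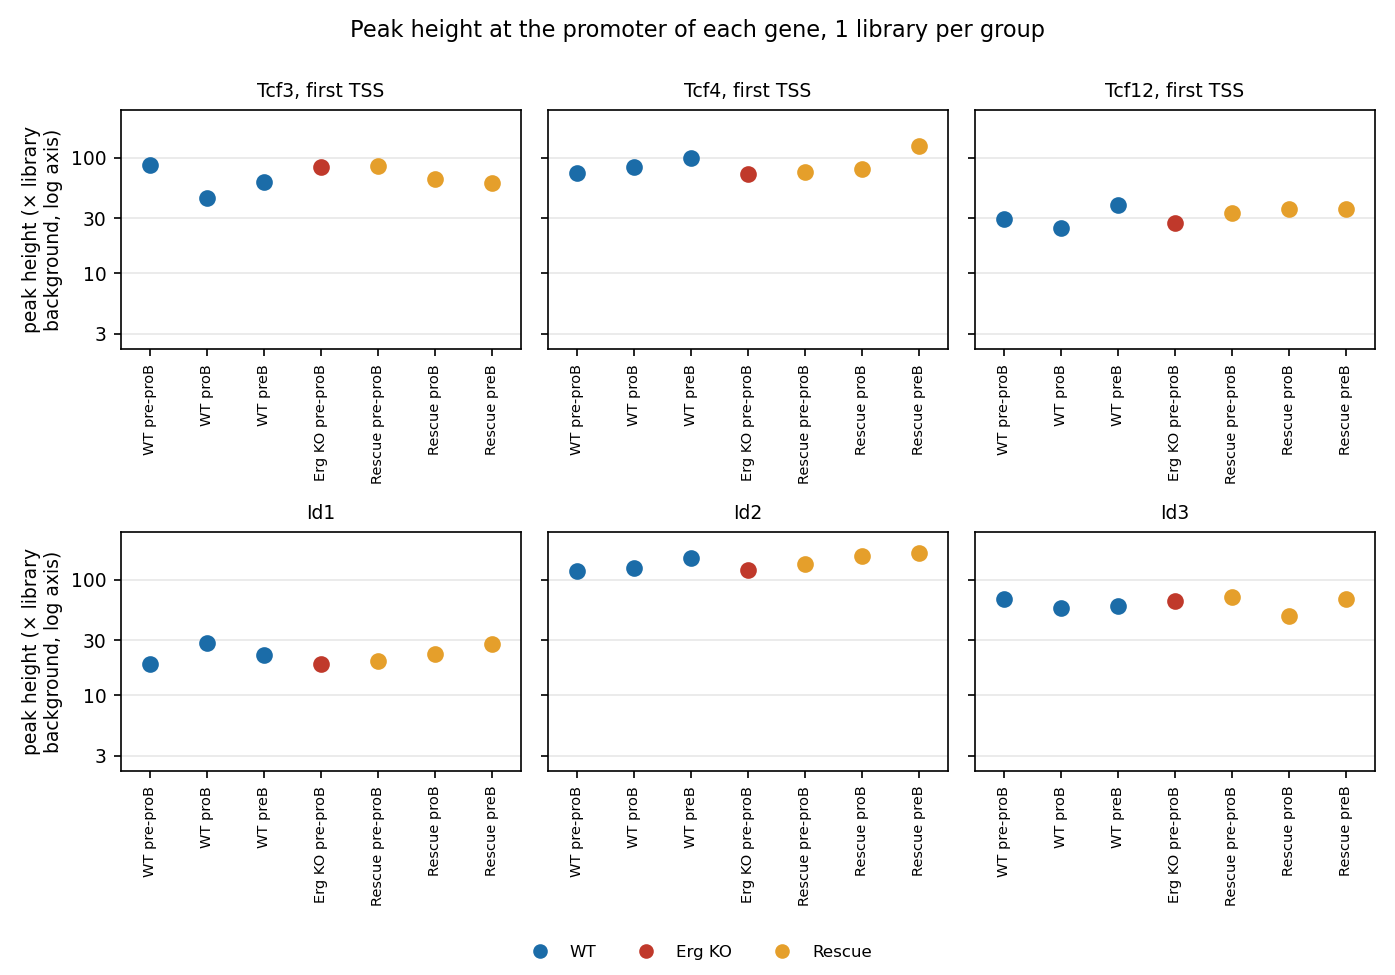
Peak height (multiples of the library background, log axis) at the promoter of each gene in the 7 libraries, 1 point per library, colored by genotype. All 42 points lie above the lowest height called, from 18.6 at Id1 in Erg KO pre-proB cells to 172 at Id2 in Rescue preB cells.

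The E protein genes have further start sites, and accessibility differed between stages at several of them. Tcf3 has an inner start site at 80431012, and the element beside it (80429293 to 80431037, summit 1080 bp downstream of that site, in intron 2) had heights of 9.14, 87.6 and 83.9 in WT pre-proB, proB and preB cells. It was closed in Erg KO and Rescue pre-proB cells, and had 55.9 and 85.3 in Rescue proB and preB cells. In WT pre-proB cells the summit pileup was 38 fragments, against 387 in WT proB cells, so the height was 10.2-fold higher in proB cells once centered on all shared regions (log2 difference 3.35, counting interval 2.87 to 3.87). A separate low region in intron 1 of Tcf3 (80431608 to 80432364) was open in all 7 libraries at 3.62 to 9.36. The highest region assigned to Tcf3, at 172 to 209 in the 7 libraries, was the promoter of its neighbour Mbd3, which encodes a subunit of the NuRD complex.

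Tcf4 had the same kind of region in intron 5 (69498444 to 69500028, summit 1390 bp upstream of the start site at 69500697). Its heights were 8.66, 97.8 and 166 in the WT stages, none in Erg KO or Rescue pre-proB cells, and 74.5 and 181 in Rescue proB and preB cells. WT proB exceeded WT pre-proB by 12-fold after centering (log2 difference 3.58, 3.09 to 4.12). In WT proB, WT preB and Rescue preB cells this was the highest region of Tcf4, above the first promoter. Another region of intron 5 (69471572 to 69472838) had heights of 4.33, 40.5 and 47.7 in WT, 4.04 in Erg KO, none in Rescue pre-proB, and 37.8 and 49.1 in Rescue proB and preB cells. In intron 15 the region at 69657744 to 69658830 had 5.53, 38.7 and 41 in WT, 3.81 in Erg KO, and 4.35, 24.6 and 26 in Rescue. In each of these Tcf4 regions, and in the inner Tcf3 element, all 4 proB and preB libraries lay far above the 3 pre-proB libraries, whichever the genotype.

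The Tcf4 start site at 69415897, in intron 3, behaved differently. The region there (69415308 to 69416649) had heights of 10.3, 86.3 and 22.7 in WT pre-proB, proB and preB cells, 4.04 in Erg KO pre-proB cells, and 4.13, 14 and 11.4 in the Rescue stages. WT exceeded the Erg-deficient library at each stage compared, by 2.63-fold over Erg KO and 2.74-fold over Rescue at the pre-proB stage, 6.48-fold at proB and 2.1-fold at preB. The pileups behind the pre-proB values were 43 fragments in WT, 18 in Erg KO and 19 in Rescue. Their summits differed, at 69415632 in WT, 69416127 in Erg KO and 69416187 in Rescue. Neither Erg-deficient pre-proB peak covered the WT pre-proB summit, so the pre-proB folds do not compare heights at the same position. It was the region with the largest difference among shared regions toward WT in all 4 of these comparisons. The first 2 comparisons share the WT pre-proB library.

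Tcf12 had elements of both kinds. Its inner start site at 71896396 lay in a region with heights of 11.5, 35.1 and 35.1 in WT, 9.2 in Erg KO and 7.83, 30.4 and 30.4 in Rescue. The intron 3 region whose sequence is shown above as pre-proB-high (72096827 to 72097684) had 88.7, 16.1 and 16 in WT, 85.9 in Erg KO, and 89.6, 31.8 and 21.1 in Rescue. Upstream of the gene, the region at 72129704 to 72130411 had 49.1, 3.85 and 17.7 in WT, 57.7 in Erg KO and 48.7, 14.6 and 13.5 in Rescue. In WT proB cells it was thus near the lowest height called, 12-fold below WT pre-proB cells (log2 difference -3.58, -4.39 to -2.87). The other intron 3 region shown above (72099841 to 72100636) was closed in the 3 pre-proB libraries and had 17.9 and 18 in WT proB and preB cells and 18.6 and 23.4 in the same Rescue stages.

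Stage differences were also seen around the Id genes. Of Id3, the element 15628 bp upstream (136127361 to 136128442) was closed in all 3 pre-proB libraries and had heights of 20.6 and 15.2 in WT proB and preB cells and 19.2 and 14 in Rescue proB and preB cells. A nearer Id3 element, 3019 bp upstream (136140183 to 136140854), had 10.3, 29.2 and 32.6 in WT, 5.61 in Erg KO and 8.7, 27.8 and 28.6 in Rescue. All 4 later libraries were above all 3 pre-proB libraries there too. The region 12205 bp upstream of Id1 had 9.86, 22 and 36.2 in WT, 11.4 in Erg KO and 9.57, 28.1 and 41.8 in Rescue, and the broad region 1764 bp upstream of the nearest Id2 start site had 31, 31.7 and 63.4 in WT, 27.1 in Erg KO and 25.9, 50.4 and 68.4 in Rescue. At Id2 the Rescue proB library was nearer to the preB libraries than WT proB was.

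**Figure D2:**
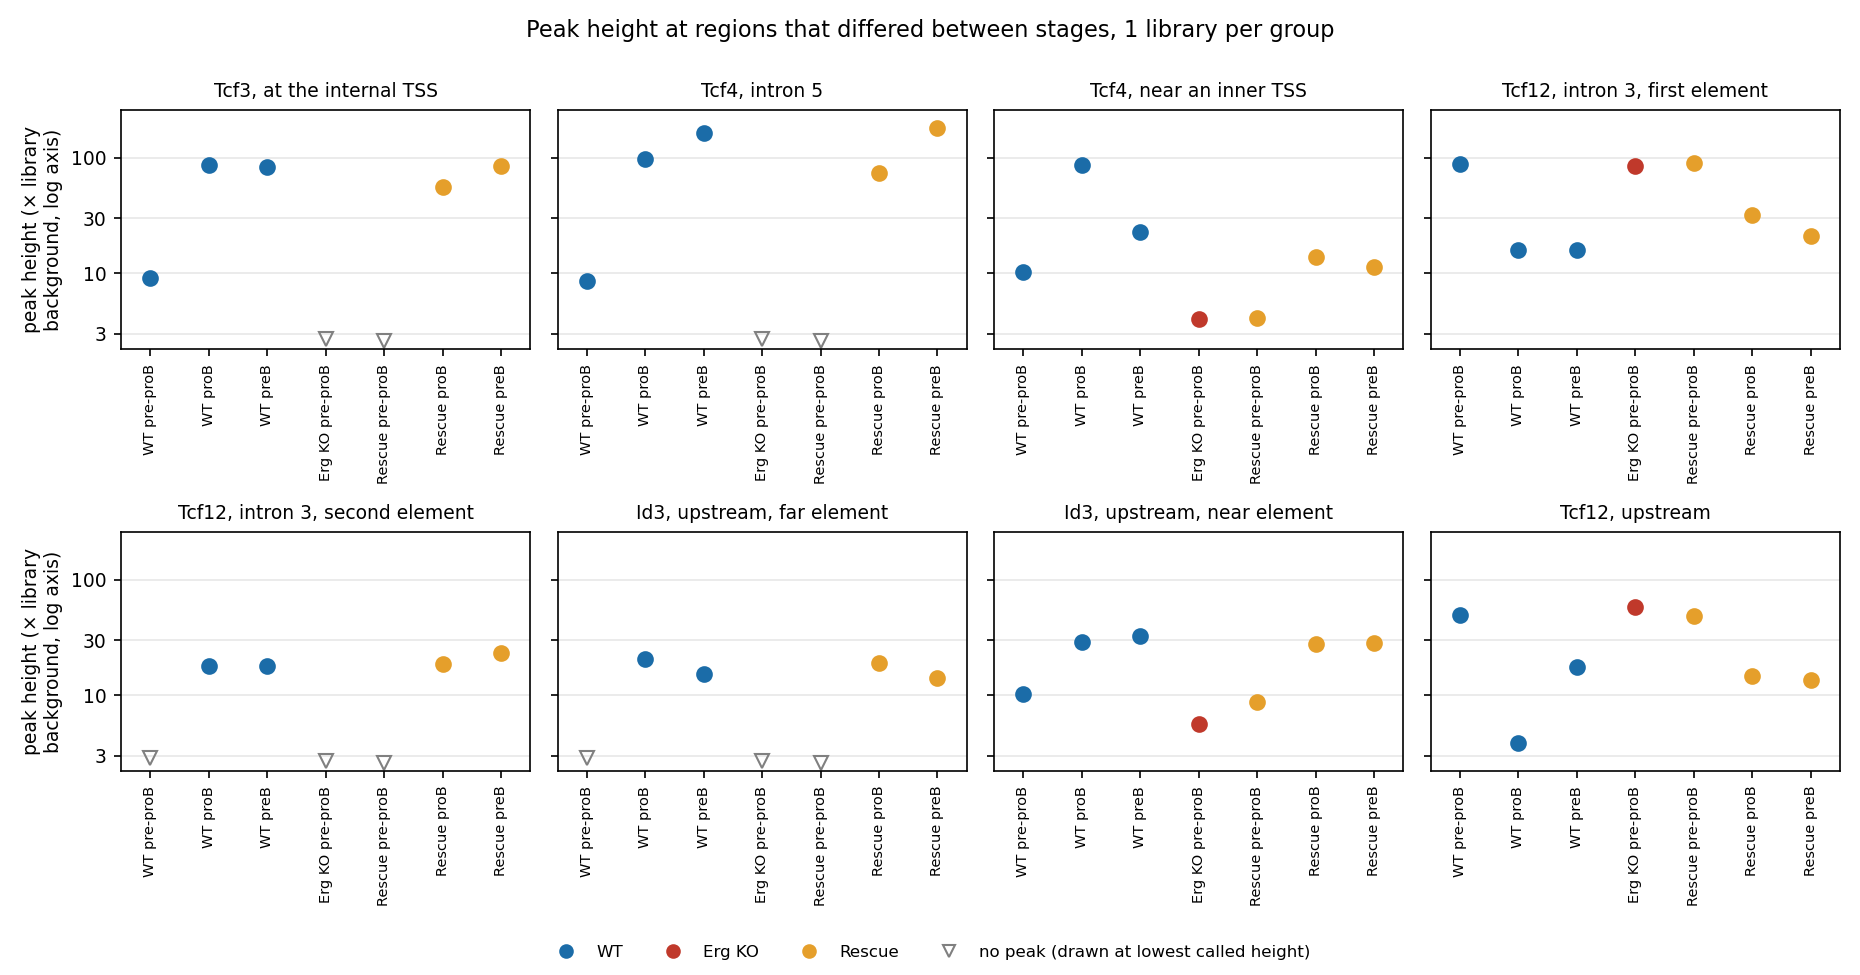
Peak height (multiples of the library background, log axis) at 8 regions that differed between stages, 1 point per library, colored by genotype, with open triangles at the lowest height called where there was no peak. The inner Tcf3 and the intron 5 Tcf4 regions have a peak of 9.14 and 8.66 in WT pre-proB cells and none in Erg KO or Rescue pre-proB cells.

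Over the 7 libraries, 61 of the 162 regions were open in all (37.7%, Wilson 95% interval 30.6 to 45.3%), against 32% of all 145247 regions. The share was 42 of 134 at the E protein genes (31.3%, 24.1 to 39.6%) and 19 of 28 at the Id genes (67.9%, 49.3 to 82.1%). Regions open in the 3 pre-proB libraries only numbered 20 (12.3%, against 11.5% of all regions), 11 at Tcf4, 8 at Tcf12 and 1 at Id1. Regions open in the 4 proB and preB libraries only numbered 11 (6.79%, against 5.19%), 5 at Tcf4, 4 at Tcf12 and 1 each at Tcf3 and Id3. A further 3 regions, the inner Tcf3 element and a pair in Tcf4, were open in WT pre-proB cells and at later stages but in neither Erg-deficient pre-proB library, which was 1.85% against 1.43% of all regions. All 3 belong to E protein genes, as do 134 of the 162 regions.

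Among the regions open in all 7 libraries, heights could be compared by stage after centering each library on its median over these regions. All 4 proB and preB heights lay above all 3 pre-proB heights at 29 of 61 regions (47.5%), against 29.9% of the 46442 such regions in the genome. The reverse held at 8 of 61 (13.1%), against 25.2% in the genome. At the Id genes the counts were 12 and 0 of 19, and at the E protein genes 17 and 8 of 42. The 8 were 4 at Tcf12, 3 at Tcf4 and the first promoter of Tcf3. Among them was the highest Tcf12 region by rank over the 7 libraries, in intron 5 (71951060 to 71951830), with 56.8, 28.3 and 24.4 in WT, 63 in Erg KO and 56.1, 40.7 and 29.1 in Rescue. The Id regions higher in later cells were 5 of 7 at Id1, 4 of 9 at Id3 and all 3 at Id2, of which the promoter and the region downstream of the gene separated only after centering. The highest of Id1 lay at the Cox4i2 promoter (152755882 to 152757614), with 15.6, 35.5 and 72.1 in WT, 19.7 in Erg KO and 19.8, 50.1 and 70.4 in Rescue. The largest range of heights over the 7 libraries in a region open in all was 21.4-fold, at the Tcf4 start site in intron 3. The lowest and highest heights there came from different summits of the merged region. Next was 15-fold at the upstream Tcf12 region, and the largest at an Id gene was 5.81-fold, at the near Id3 element. The grouping by stage was chosen after the values were seen.

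**Figure D3:**
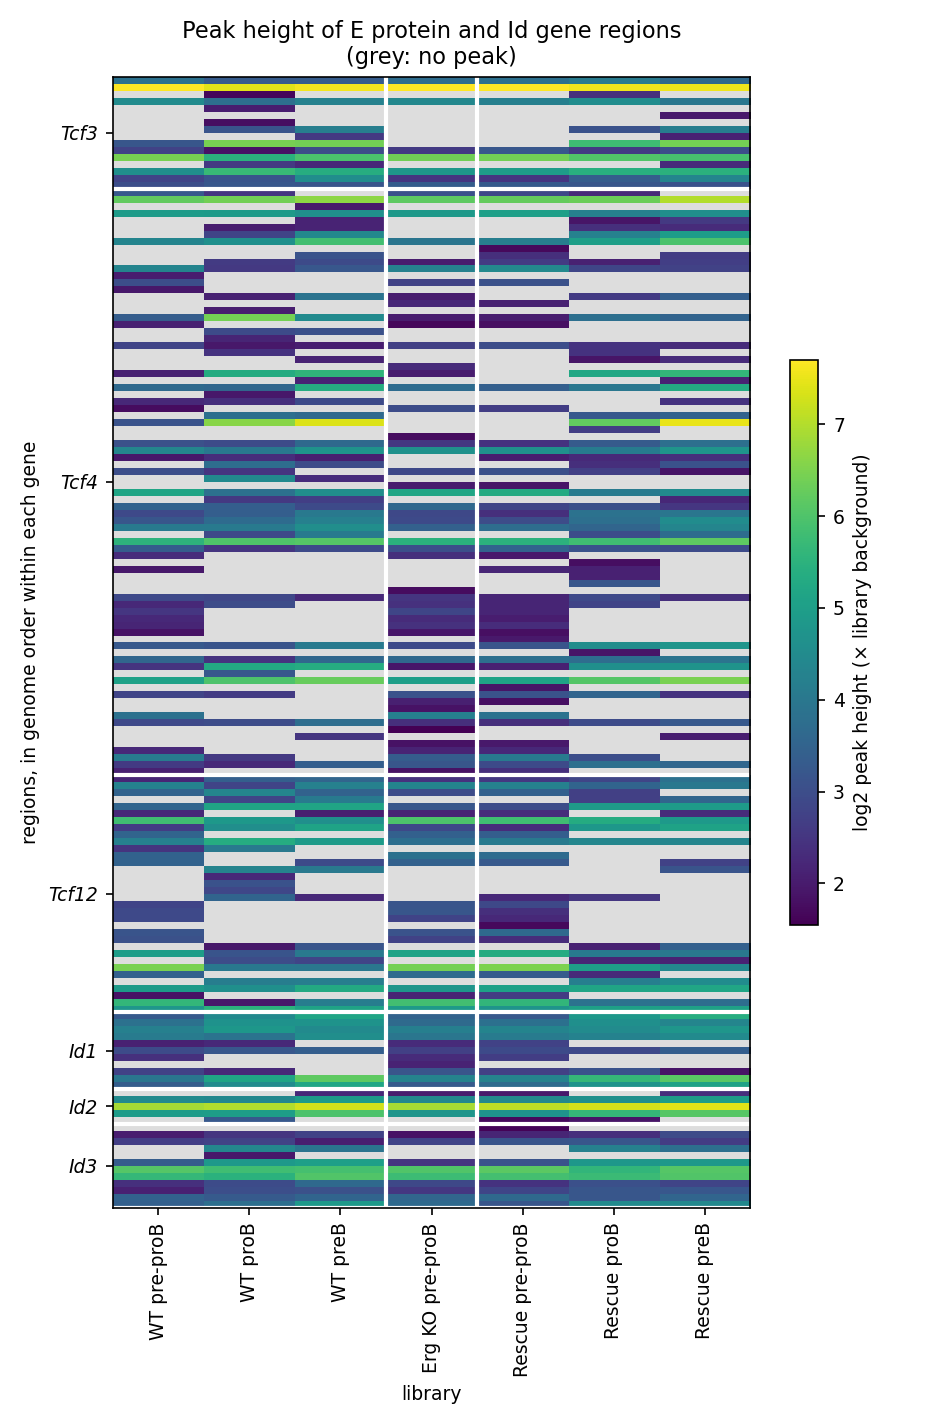
Log2 peak height (multiples of the library background) of the 162 regions, 1 row per region in genome order within each gene and 1 column per library, with grey for no peak. The 20 rows open in the 3 pre-proB columns only are all at Tcf4 and Tcf12 apart from 1 at Id1.

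The step from pre-proB to proB cells was compared in WT. Of the 101 regions open in WT pre-proB cells, 26 were closed in WT proB cells (25.7%, 18.2 to 35%), against 34.4% of all regions. Of the 107 open in WT proB cells, 32 were closed in WT pre-proB cells (29.9%, 22.1 to 39.2%), against 31.9%. Of 75 shared regions, 15 were at least 2-fold higher in proB cells, against 15.4% of all shared regions, and 8 were at least 2-fold higher in pre-proB cells, against 15.1%. The 8 were 4 regions each of Tcf4 and Tcf12, and at the Id genes 4 of 21 were higher in proB and 0 in pre-proB cells. The regions highest in pre-proB cells and closed in proB cells were in intron 15 of Tcf4 (69674057 to 69674813, height 14.4) and intron 5 of Tcf12 (71954596 to 71954917 at 11.5, with 71986733 to 71987127 and 71989441 to 71990050 both at 11.1). Among those open in WT proB and closed in WT pre-proB cells, the highest were in intron 6 of Tcf4 (69547694 to 69548317, 22.2), the upstream Id3 element at 20.6, and intron 5 of Tcf12 (71993658 to 71994921, 19.7). The highest for Tcf3 was in intron 3 (80423298 to 80424133) at 8.83, and for Id2 it was the region 22268 bp upstream at 9.51. The only Id region closed by the proB stage was 7234 bp downstream of the Id1 start site, at 5.29 in WT pre-proB cells. With lists cut to their strongest 38232 peaks the shares were 16.7% closed in proB and 46.8% closed in pre-proB cells, and with a 50% reciprocal overlap 42.6% and 45.8%. Here and below, shares under altered settings have no share over all regions beside them.

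From proB to preB cells, 21 of 107 regions open in WT proB cells were closed in WT preB cells (19.6%, 13.2 to 28.1%), against 26.5% of all regions, and 10 of 96 were closed the other way (10.4%, 5.76 to 18.1%), against 10.6%. Of 86 shared regions, 13 were at least 2-fold higher in preB cells, against 4.74% of all shared regions, and 3 in proB cells, against 9.71%. All 16 were at E protein genes, which held 66 of the 86 shared regions. The largest toward preB cells were the upstream Tcf12 region (3.85 to 17.7, 4.24-fold) and the Tcf4 regions of intron 3 at 69406836 to 69407223 (4.3 to 14.9, 3.19-fold) and of intron 5 at 69475532 to 69476214 (12 to 41.3, 3.18-fold). Those toward proB cells were the intron 6 region of Tcf4 at 69547694 (22.2 to 5.05, 4.75-fold), the inner start site in intron 3 of Tcf4 (86.3 to 22.7, 4.11-fold) and an intron 4 region of Tcf12 at 72014628 to 72015237 (11.5 to 4.77, 2.62-fold). The highest region closed in preB cells was in intron 5 of Tcf12 (71980565 to 71981033, 16.5 in WT proB cells), and the highest closed in proB cells was in intron 3 of Tcf4 (69388304 to 69388804, 8.7 in WT preB cells). With lists of 38232 peaks the shares were 6.38% and 27.9%, so the larger share was then that of regions open in preB and closed in proB cells. Without the share over all regions at that setting, this cannot be read as particular to these genes.

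Pre-proB cells of WT and Erg KO mice were compared to see what differs without Erg at a fixed stage. Of the 101 regions open in WT, 8 were closed in Erg KO (7.92%, 4.07 to 14.9%), against 6.38% of all regions. The other way it was 13 of 106 (12.3%, 7.31 to 19.9%), against 13.2%. The 8 were all at E protein genes (6 at Tcf4 and 1 each at Tcf3 and Tcf12), which held 79 of the 101. At the Id genes 0 of 22 regions open in WT were closed in Erg KO (Wilson upper bound 14.9%). The highest were the inner Tcf3 element at 9.14 and the intron 5 Tcf4 region at 8.66, which after centering was 3.49-fold and 3.31-fold the lowest height called in Erg KO, followed by the intron 5 Tcf12 region at 71980565 with 5.53. The other 5 lay between 3.85 and 4.81. The 13 regions open in Erg KO only had heights between 2.92 and 4.94, the highest in intron 3 of Tcf4 (69459857 to 69460317), and 2 of them were at Id genes, 9697 bp downstream of the Id1 start site at 4.49 and downstream of Id2 at 4.04. Of 93 shared regions, 1 was at least 2-fold higher in Erg KO, against 0.236% of all shared regions, and 1 in WT, against 0.383%. These were the intron 5 Tcf4 region at 69490990 to 69491400 (3.37 in WT and 7.85 in Erg KO, 2.27-fold, from pileups of 14 and 35) and the inner Tcf4 start site described above. The median log2 difference of the 93 was -0.09. With lists cut to equal length the share open in Erg KO only was 4.11%.

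Markers of the sorted cells were read in the same libraries. Of 10 B-lineage promoters, 9 were open in WT pre-proB cells, 6 in Erg KO and 7 in Rescue pre-proB cells, and all 10 in the later libraries, with summed heights of 372 to 391 in pre-proB cells and 648 to 713 later. WT pre-proB cells had low peaks at Cd79a (13.9), Vpreb1 (10.3) and Pax5 (4.33), all closed in Erg KO pre-proB cells, and of these Rescue pre-proB cells had Cd79a alone, at 4.13. In WT proB cells the same promoters were at 98, 67.9 and 34.2. Like the inner Tcf3 and intron 5 Tcf4 regions, these 3 promoters were low or closed in pre-proB cells and higher in all later libraries. Pax5 and Vpreb1, like both regions, had a peak in WT pre-proB cells and none in the other pre-proB libraries. Between WT proB and preB cells Pax5 rose from 34.2 to 51.4, as the Tcf4 region also rose. Vpreb1 and Cd79a did not follow the regions throughout. Vpreb1 fell from 67.9 to 26.7 between WT proB and preB cells while the Tcf4 region rose from 97.8 to 166. Cd79a had a low peak (4.13) in Rescue pre-proB cells, where both regions were closed. The part of these promoters in that result was not tested. Some other members of the list did not rise in all later libraries. Bank1 was at 198 to 218 in pre-proB cells against 97.8 to 152 later, Cd22 at 37.5 to 49 against 24.1 to 46.9, and Blnk at 55.7 to 60.6 against 50.7 to 59.5. Of 10 plasmacytoid dendritic promoters all were open in each pre-proB library (summed heights 597 to 687) and 8 or 9 in the later ones (359 to 584). Cox6a2 was open in pre-proB cells alone, Siglech was at 126 to 138 there against 22.6 to 68.4 later, and Pacsin1 at 70.9 to 74.9 against 7.02 to 14.6. Others of the list were higher in later cells, as Spib (59.4 to 67.9 against 102 to 223) and Tlr9 (96.4 to 99.4 against 115 to 179), while Runx2 overlapped (20.7 to 30.5 against 20.5 to 28.7). T-cell promoters numbered 4 of 10 in WT and 7 in Erg KO and Rescue pre-proB cells (summed heights 111, 129.9 and 143), with Cd3e, Cd3d and Themis closed in every library. The shares over all coding genes were 63.3%, 64.2% and 64.5%. Later counts were 5 in WT and Rescue proB and 3 in WT and Rescue preB cells. Open in Erg KO and Rescue but not WT pre-proB cells were Cd4 (6.95 and 3.7), Tcf7 (6.06 and 5.66) and Bcl11b (4.26 and 3.7). All were also open in WT proB cells (3.62, 12.5 and 8.83). NK and innate lymphoid promoters numbered 8 of 10 in each pre-proB library (251 to 279) and 5 to 8 later (195 to 259), with Ncr1 closed in all. Myeloid promoters numbered 4 to 6 of 10 in every library (56.7 to 147), with Elane, Ly6g and S100a8 closed in all. Whether the plasmacytoid dendritic promoters bear on the Tcf4 or Tcf12 regions open in pre-proB cells was not tested, and fewer cells of a type cannot be told apart from less open chromatin per cell.

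Rescue cells were compared with WT at each titled stage. At pre-proB, 7 of 101 regions open in WT were closed in Rescue (6.93%, 3.4 to 13.6%), against 5.39% of all regions, and 14 of 108 the other way (13%, 7.88 to 20.6%), against 15.4%. The 7 included the inner Tcf3 element, the intron 5 Tcf4 region and the Tcf12 region at 71980565, and the comparison shares the WT library with that of Erg KO. Of 94 shared regions, 0 were at least 2-fold higher in Rescue, against 0.263%, and 1 in WT (the inner Tcf4 start site), against 0.527%. The highest of the 14 was a Tcf4 region of intron 3 at 69396301 to 69396780, at 6.09 in Rescue pre-proB cells. With lists cut to equal length the share open in WT only was 18.2%, and with lists of 38232 peaks 3.33%.

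At proB, 18 of 107 regions open in WT were closed in Rescue (16.8%, 10.9 to 25%), against 20.8%, and 9 of 98 the other way (9.18%, 4.91 to 16.5%), against 19.4%. The highest of the 18 were the intron 6 Tcf4 region (22.2), and the intron 5 Tcf12 regions at 71993658 (19.7) and 71980565 (16.5), the last of which was closed in all 3 Rescue libraries. The highest of the 9 was in intron 8 of Tcf4 (69606202 to 69607152, 9.17 in Rescue proB cells). Requiring a 50% reciprocal overlap gave 17.3% for the 9, and lists of 38232 peaks 16.7%. Of 89 shared regions 5 were at least 2-fold higher in Rescue, against 5.41%, and 6 in WT, against 7.07%. The largest toward WT were the inner Tcf4 start site (86.3 against 14, 6.48-fold), intron 8 of Tcf12 at 71888114 to 71889114 (20.4 against 6.59, 3.26-fold) and intron 6 of Tcf4 at 69544577 to 69545219 (13.4 against 5.16, 2.73-fold). The single Id region past 2-fold was that 22268 bp upstream of Id2 (9.51 against 3.73, 2.69-fold). Toward Rescue they were the upstream Tcf12 region (3.85 against 14.6, 3.6-fold), the downstream Tcf4 region at 69692254 to 69692634 (4.75 against 14, 2.8-fold) and intron 3 of Tcf4 at 69374055 to 69375027 (7.02 against 19.2, 2.59-fold).

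At preB, 5 of 96 regions open in WT were closed in Rescue (5.21%, 2.24 to 11.6%), against 7.87% of all regions, and 4 of 95 the other way (4.21%, 1.65 to 10.3%), against 17.3%. The interval of the last share lies below the genome-wide value. With lists of 38232 peaks the first share was 14.8%, and with lists of equal length the last was 1.11%. The highest of the 5 were the intron 8 Tcf12 region at 71888114 (11.2) and a Tcf4 region of intron 3 at 69428028 to 69428676 (8.42), and that of the 4 was in intron 15 of Tcf4 (69665655 to 69667090, 5.46). Of 91 shared regions, 0 were at least 2-fold higher in Rescue, against 2.37%, and 1 in WT, against 1.42%, which was again the inner Tcf4 start site (22.7 against 11.4). The inner Tcf3 element (83.9 in WT and 85.3 in Rescue), the intron 5 Tcf4 region (166 and 181) and the far Id3 element (15.2 and 14) had similar heights in WT and Rescue preB cells. Without centering no shared region passed 2-fold. Read by source name, the library titled Rescue preB would be pre-proB, and the shares open in WT and closed in Rescue would be 29.7% at pre-proB, 31.8% at proB and 14.6% at preB, with 25.3%, 32.4% and 16.3% the other way.

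**Figure D4:**
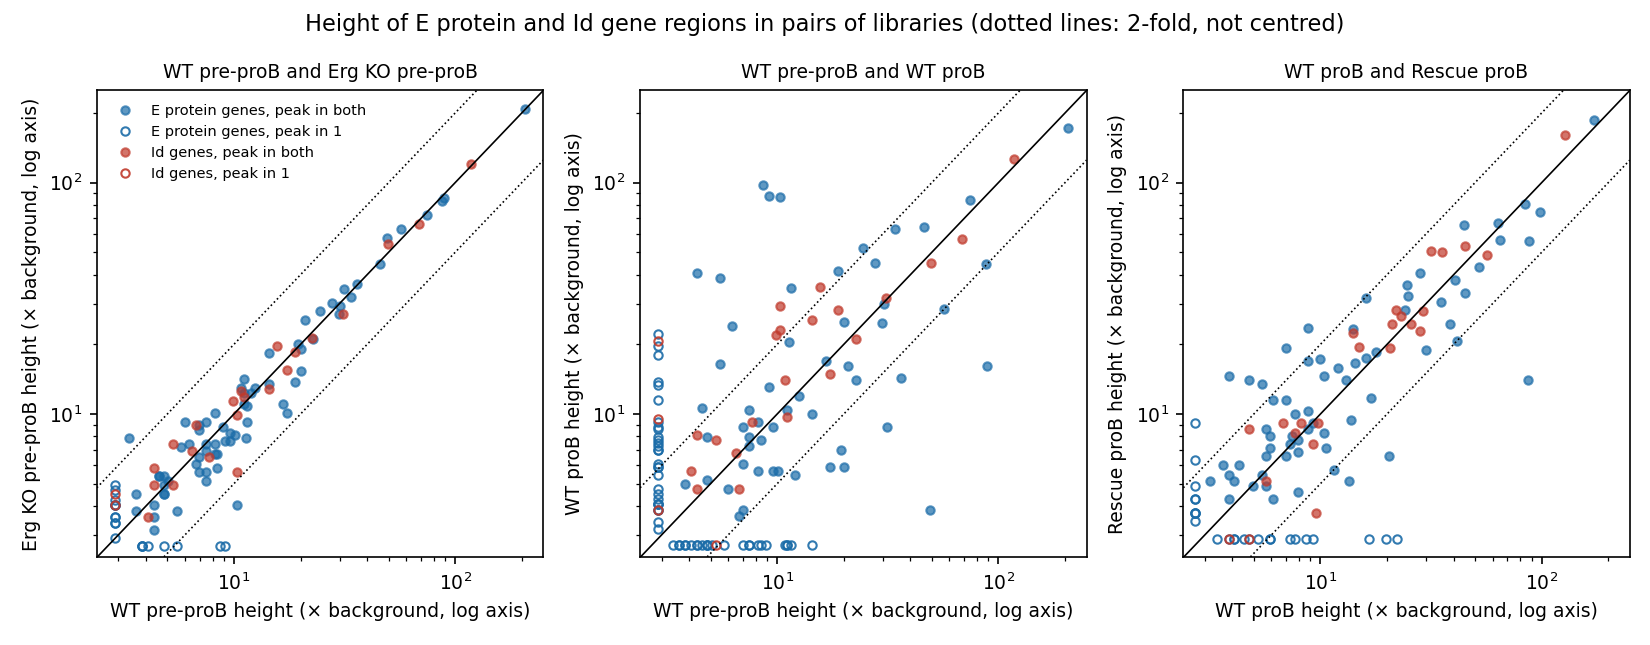
Peak height of the regions in WT pre-proB against Erg KO pre-proB, WT pre-proB against WT proB and WT proB against Rescue proB (multiples of the library background, log axes), 1 point per region, with open points at the lowest height called where 1 library had no peak and dotted lines at 2-fold. After centering, 2 of 93 shared regions are past 2-fold in the first panel and 23 of 75 in the second.

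**Figure D5:**
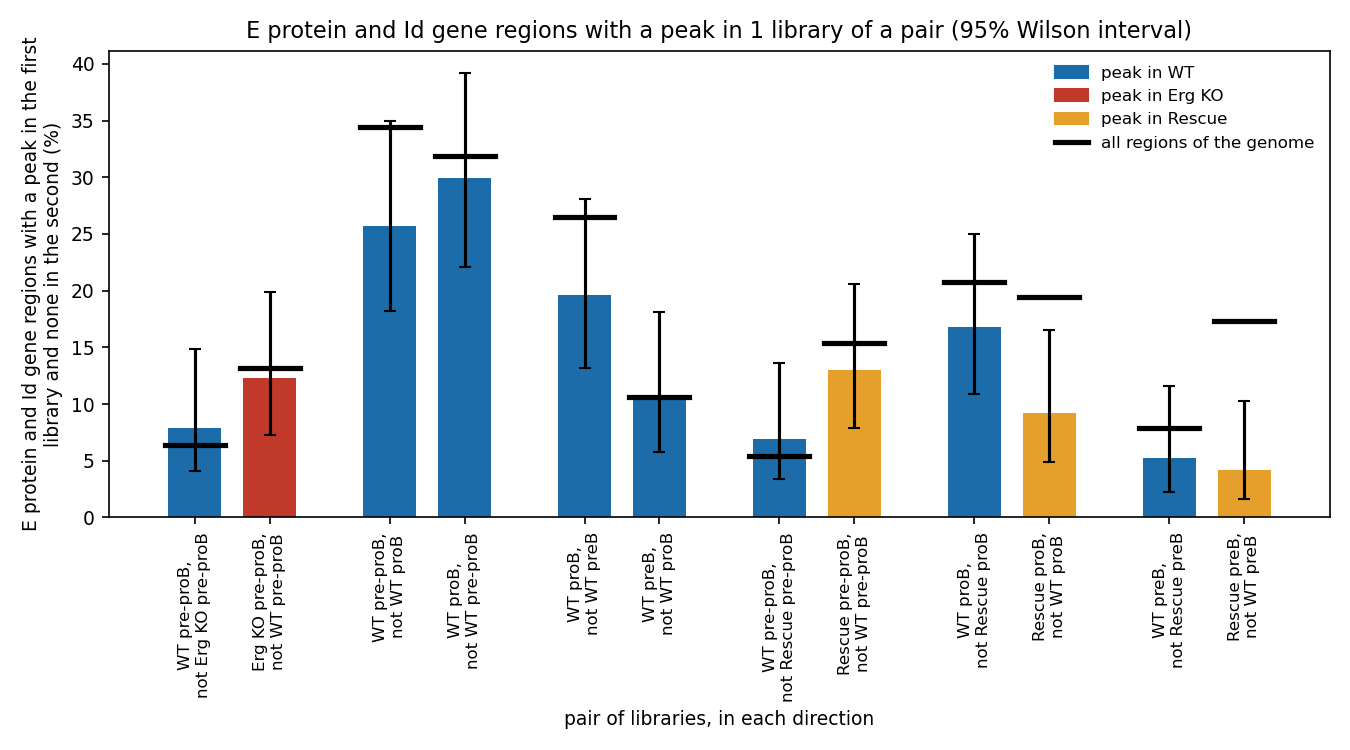
Share of regions open in 1 library of a pair and closed in the other (bars, percent, with 95% Wilson intervals) and the share over all regions (black lines), for 6 pairs in both directions, 1 library per group. The interval lies below the line for regions open in Rescue and closed in WT at proB (9.18% against 19.4%) and preB (4.21% against 17.3%).

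The 6 letter patterns were counted in the 300 bp around the highest-scoring summit of each region. CAGGTG was in 52 of 162 regions (32.1%, 25.4 to 39.6%), against 26.1% of all regions, and CAGCTG in 46 (28.4%, 22 to 35.8%), against 25.4%. At the Id genes the shares were 13 of 28 for CAGGTG (46.4%, 29.5 to 64.2%) and 16 of 28 for CAGCTG (57.1%, 39.1 to 73.5%), and at the E protein genes 29.1% and 22.4% of 134. The Id2 promoter, the near Id3 element and the intron 3 and upstream Tcf12 regions that were higher in pre-proB cells were among those with CAGCTG. The intron 5 Tcf4 region at 69498444 held CAGGTG. Of the 20 regions open in pre-proB cells only, 12 held CAGGTG (60%, 38.7 to 78.1%), against 27.7% of the 16647 such regions in the genome. The other E-box pattern searched, CAGCTG, was in 6 of these 20 (30%), against 29.4%. CAGGTG was in 4 of the 11 regions open in proB and preB cells only (36.4%, 15.2 to 64.6%), against 25.3%. The EBF1 letters were in 13 of 162 regions (8.02%, 4.75 to 13.2%), against 7.56%. They were in 2 of the 11 regions open in proB and preB cells only, the Id3 and Tcf12 elements shown above, and in 0 of the 20 open in pre-proB cells only, against 19.9% and 2.17% of such regions in the genome. The other shares were 10.5% for RUNX (13.6% of all regions), 6.17% for PU.1 (8.52%) and 1.85% for ETS (1.19%).

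Genes that work with E proteins, and genes that E proteins are known to activate, were counted by promoter. Of 14 partner and modulator genes, 12 were open in all 7 libraries, against 12869 of 21911 coding genes. The 12 included Id4, the hematopoietic factors Tal1 and Lyl1, their cofactors Lmo2 and Ldb1, and Notch1. Msc was closed only in WT preB cells and Ascl2 only in WT pre-proB cells. Bhlhe41, a helix-loop-helix repressor, had heights of 10.1, 24.7 and 32.8 in WT, 11 in Erg KO and 10.4, 29.5 and 33.3 in Rescue, so that all 4 proB and preB libraries lay above the 3 pre-proB libraries. Bhlhe40 of the same list went the other way, with 136, 65.4 and 92.6 in WT, 132 in Erg KO and 139.7, 84 and 113 in Rescue. Of 15 target genes of early B cells, 14 were open in WT pre-proB, 10 in Erg KO and 11 in Rescue pre-proB cells, and 14 or 15 in the later libraries, while 13456 to 14361 of 21911 coding genes were open in each library. Ebf1, Foxo1, Rag1, Rag2, Igll1, Cd79b, Il7r, Gfi1 and Blnk were open in all 7. Pou2af1, which encodes a B-cell coactivator, had 8.9 in WT pre-proB cells, no peak in the other pre-proB libraries and 97.7 to 156 later. Dntt, which encodes the terminal transferase that adds nucleotides at V(D)J junctions, had 30.8 in WT pre-proB, 11 in Erg KO and 11.3 in Rescue pre-proB cells, 3.85 in WT proB and 5.44 in Rescue proB cells, and no peak in preB cells. The summed heights of the 15 were 337 to 391 in pre-proB and 847 to 989 in later libraries. Not every gene rose. Like Dntt, Foxo1 (70.4 to 73.8 against 44.6 to 66.5) and Il7r (49.3 to 63.3 against 33.3 to 43.9) were higher in the pre-proB libraries, and Blnk overlapped.

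The promoters most like each gene over the 7 libraries were ranked by Pearson's r of centered log2 height, among 2880 coding promoters (2879 for Tcf4) open in all libraries with a range of at least 2-fold. For a gene with several start sites the highest window was taken in each library, which mixes regions for Tcf3, Tcf4, Tcf12 and Id1. For Id1 they were Raver2 (r = 0.995), Chst3 (0.988) and 4930444P10Rik (0.983), and 7.12% of the candidates reached 0.9. For Id2 they were Atoh8 (0.961), Sema5a (0.961) and Elovl7 (0.958), and for Id3 Gm12689 (0.975), Scgb1c1 (0.95) and Trim8 (0.949). For Tcf4 they were Dmrt3 (0.964), Tmem26 (0.939) and Cerk (0.930). For Tcf3 they were Eng (0.930), Lif (0.930) and Plekhb1 (0.928), and for Tcf12 Rnase12 (0.943), Bcat1 (0.920) and Suox (0.918). The points share the 7 libraries, and the ranges of the genes' own heights after centering were small, from 1.21-fold at Id2 to 2.1-fold at Tcf4.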

How the data were processed

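Nuclei of sorted cells were tagmented with Tn5 per the labels, although the study's methods name sonication. Per the submitters' processing notes CASAVA 1.8.2, Bowtie2, Picard and MACS2 were used on mm10. For the last 3, versions were not given in the sources used here, nor were MACS2 options, duplicate handling or read shifting, which bear on peak number and width. The authors deposited 1 peak list per library. The score in the deposited lists equals −log10 q multiplied by 10 and truncated. The fold the authors deposited was a ratio of summit pileup to background, each with a pseudocount of 1, and the −log10 p and −log10 q the authors deposited were those of the summit.

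Folds were whole multiples of 1 step within 0.02 for 100% of peaks, which gave background and pileup, and height as their ratio. No replicates existed, so pairs of libraries were described by shares with Wilson 95% intervals and by 2-fold height differences with exact binomial counting intervals, centered on the median of all shared regions. The code was tested on simulated data (Python 3.11.15, numpy 2.4.6, pandas 2.3.3, scipy 1.17.1, matplotlib 3.10.9). Sequences came from the RefSeq copy of GRCm38, and promoters were 1000 bp on either side of a GENCODE M21 basic start site. Genes, gene lists and tests were chosen with earlier results of these data known. Regions were named by within-list rank, at most 3 per direction, gene and comparison, or by size of the shared difference, at most 3 per direction and comparison. Other regions named were singled out after their values were seen. Alternatives used lists of 76465 or 38232 peaks, a 50% reciprocal overlap, gene bodies alone, flanks of 100 kb, no promoters of other genes, promoter windows of 500 or 2500 bp, pattern windows of 400 bp, other centering, and stages from source names. The values of 1 listed promoter are not reported here.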

Additional observations from a re-analysis of the deposited data

Results flagged for a closer look

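One region moved in opposite directions in WT and Rescue between the same stages, past its counting interval in both. It lies downstream of Tcf3 at the promoter of Uqcr11 (80406398 to 80407534), a gene of the mitochondrial respiratory chain. From pre-proB to proB cells its centered log2 height differed by -0.62 in WT (counting interval -1.10 to -0.14) and by 0.58 in Rescue (0.12 to 1.04), from heights of 22.8 and 14 in WT and 18.3 and 23.2 in Rescue. It was the single such case among 147 pairs of region and step with a peak in all 4 libraries. The difference between the genotypes was not tested, because each group had 1 library.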

How the results depend on the processing

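Of 136 alternative values for 37 results, 114 stayed within their interval or within 1.5 times, among them all promoter counts and letter patterns. For regions open in 1 library of a pair only, lists of equal length gave 4.11% for Erg KO pre-proB against WT, 18.2% for WT pre-proB against Rescue and 1.11% for Rescue preB against WT. Lists of 38232 peaks gave 3.57% for Erg KO against WT pre-proB, 16.7% for WT pre-proB against proB and 46.8% the other way, 6.38% for WT proB against preB and 27.9% the other way, 3.33% for WT pre-proB against Rescue and 0% the other way, 16.7% for Rescue proB against WT, and 14.8% for WT preB against Rescue. A reciprocal overlap of 50% gave 42.6% for WT pre-proB against proB, 45.8% the other way and 17.3% for Rescue proB against WT. Stages from the source names gave 29.7% for WT pre-proB against Rescue and 25.3% the other way, 31.8% and 32.4% at proB, and 14.6% and 16.3% at preB. Without centering 0 shared regions were 2-fold higher in WT than Rescue preB cells. Shares over all regions are given for the main setting only, so these changes cannot be set against the genome. The cause was not tested. No paired analysis was possible because each group had 1 library, and for the same reason no library could be left out. Background pileups of 3.49 to 4.6 leave regions below a height of about 3 unseen.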
